A study of Homo sapiens with 6 samples.

Results

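Interferon-stimulated genes were examined in a colorectal cancer cell line after knockdown of CNOT7. They were taken by symbol from a list of 49 genes, all of which were found among the 58735 genes of the count table, and 44 had enough counts for a test, as had 17574 genes in all. The labels name the cells SW480, an epithelial line from a human colorectal tumor, whereas the paper names HCT116, another such line, for the RNA sequencing. The data hold 3 control RNA libraries and 3 from cells with a stable, shRNA-mediated knockdown of CNOT7, a deadenylase subunit of the CCR4-NOT complex that shortens the poly(A) tails of mRNAs. The labels give no treatment for any library, and the shRNA used in the knockdown libraries is not specified. Nothing in the labels says whether libraries of a group came from separate cultures. The p-values set the difference between the groups against the spread between these libraries, which may be technical, and may not hold for new cultures.

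Interferons are secreted signals of viral infection. Type I and type III interferons bind their receptors, JAK1 and TYK2 phosphorylate STAT proteins, and a complex that includes STAT2 and IRF9 binds the interferon-stimulated response element in the promoters of its targets. The targets encode RNA sensors, antiviral effectors and factors that switch the signal off, and many of them have a low basal level without any added interferon.

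The library totals ranged from 23788451 to 29104872 counts, and the replicates within each group differed by more than sampling noise. CNOT7 fell to 24.1% of its control level, from 178.7 ± 11.3 to 43.1 ± 4.31 CPM (counts relative to library size, scaled with TMM factors, mean ± SD, n = 3), so the labels matched the target. EPCAM, KRT8 and KRT18, which mark epithelium, and CDX2, which marks intestinal epithelium, were expressed in every library. KRT20 and CDX1, of the same list, were at or near 0. Of the 7 tested genes of the epithelial list, CDH1 and VIL1 were called higher, with log2 fold changes of 0.51 and 0.72 (adjusted p = 1.55e-04 and 2.93e-05). KRT8 and KRT19 were called lower, with -0.15 and -0.18 (adjusted p = 0.0414 and 0.0212). These 4 calls made 57.1% of the 7 genes, against 25.2% of all tested genes. The summed level of the list was 5554 to 5972 CPM in the control and 5132 to 5683 CPM in the knockdown libraries. VWF, of the endothelial list, was separate between the groups and not called (log2 fold change 0.54, adjusted p = 0.0936). The leukocyte list had a summed level of 4.43 to 5.79 CPM in the control and 6.81 to 9.07 CPM in the knockdown libraries. Of its 10 genes, 4 were tested and ITGAX was called higher, where 13.3% of all tested genes were called higher. The defining gene of the list, PTPRC, had no count except 4 in knockdown replicate 3. The part of these marker lists in the results on interferon-stimulated genes was not tested.

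Interferon-stimulated genes did not share a direction with CNOT7 knockdown. At an adjusted p-value under 0.05 (quasi-likelihood test of edgeR, Benjamini-Hochberg adjusted over all genes), 8 of the 44 tested members were higher and 6 were lower, and 30 were not called. The called share of the members was 31.8%, against 25.2% of all tested genes. The higher calls made 18.2% of the members and 13.3% of all genes, and the lower calls 13.6% and 11.9%. The median log2 fold change was 0.042 over the tested members and 0.0039 over all tested genes. Groups were separate, with all 3 knockdown values above or all 3 below the control values, for 16 of the 44 members and for 38.8% of all genes. Leaving out 1 library gave between 4 members higher, without knockdown replicate 1, and 8, and between 3 lower, without control replicate 1, and 6. The higher members were IFI27, IFITM1, OASL, ISG20, BST2, IFITM3, UBE2L6 and PARP12, and the lower members were HERC6, OAS2, IFIT3, IFIT5, MX2 and IRF1. Of these 14, 7 were called in all 13 alternative fits, namely IFI27, IFITM1, BST2, IFITM3, HERC6, OAS2 and IFIT3.

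**Figure D1:**
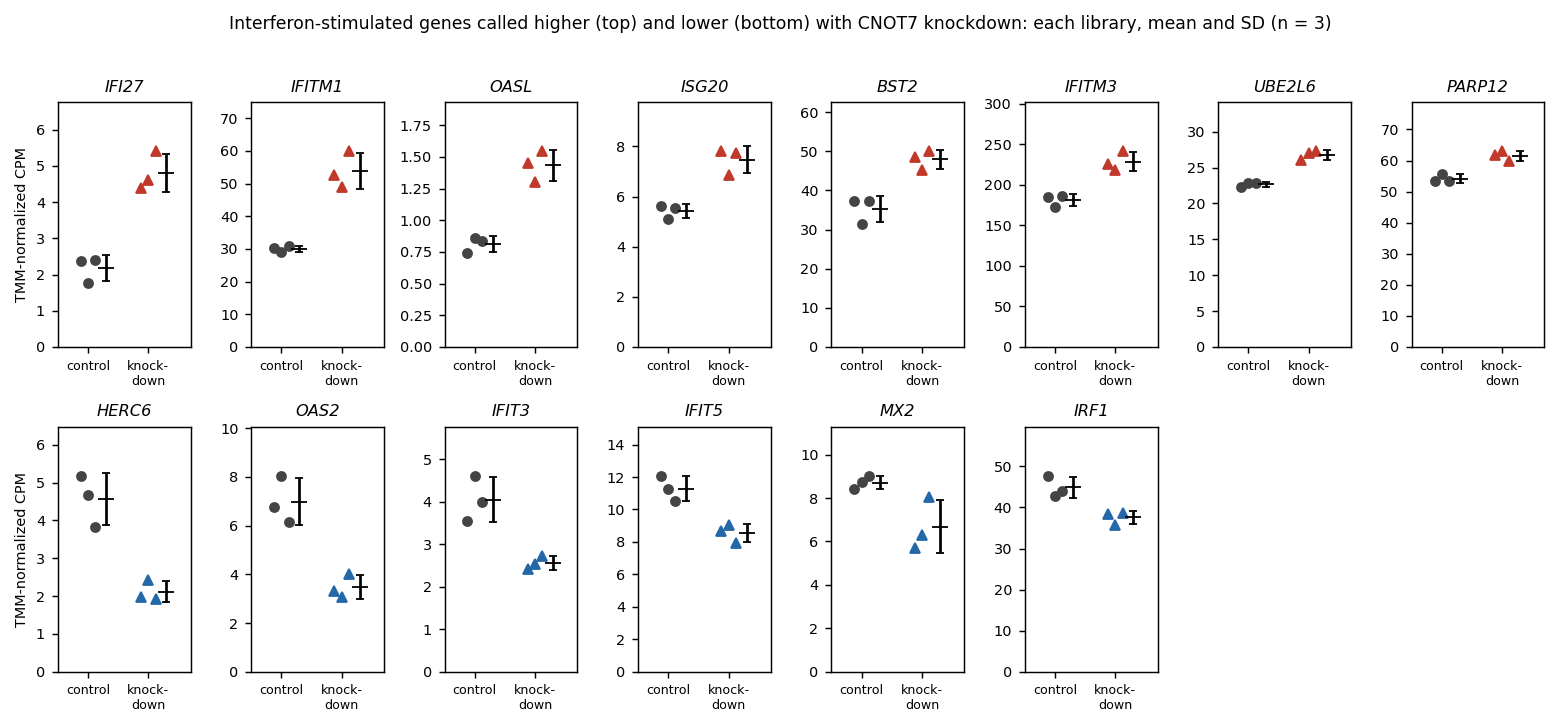
TMM-normalized CPM (y axis, from 0) of the 14 called interferon-stimulated genes in the 3 control (circles) and 3 CNOT7 knockdown libraries (triangles), with the mean and SD beside them. The top row holds the 8 genes called higher and the bottom row the 6 called lower, and in none of them did the groups overlap.

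The promoters of the called members are shown because genes of both directions carry the same response element. RefSeq promoters (GRCh38.p14, from 250 bases before to 50 bases after the annotated start) were matched to 40 of the 49 members. The core of the interferon-stimulated response element was searched on both strands as GAAANNGAAA, where overlapping matches were each counted. It occurred in 26 of the 40 promoters (65.0%), in 3.65% of all 27305 promoters and in 2.76% of those of the 11361 tested genes with an entry. Among the members with an entry it occurred in 6 of the 7 called higher, in 2 of the 4 called lower, in 15 of the 24 not called and in 3 of the 5 not tested. The gamma-activated site, searched as TTCNNNGAA, occurred in 11 of the 40 promoters (27.5%) and in 7.88% of all promoters. DHX58, OAS2, OASL, IRF7, IFIT2, IFITM2, USP18, MX2 and GBP2 had no entry in the table. A match is a run of letters and does not show that a factor binds there. The matches of the called members are given 5′ to 3′ on the strand of the gene, upstream of its RefSeq start. The matched letters are in capitals, whether the core or its reverse complement.
IFI27: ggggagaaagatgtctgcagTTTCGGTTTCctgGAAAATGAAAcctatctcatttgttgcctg
IFITM1: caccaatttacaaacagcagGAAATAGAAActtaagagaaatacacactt
ISG20: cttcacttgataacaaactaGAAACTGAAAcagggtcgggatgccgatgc
BST2: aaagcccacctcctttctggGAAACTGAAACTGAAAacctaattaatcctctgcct
IFITM3: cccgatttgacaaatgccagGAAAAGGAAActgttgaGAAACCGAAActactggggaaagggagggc
PARP12: tttcgccggcccggggccgcTTTCGGTTTC
IFIT3: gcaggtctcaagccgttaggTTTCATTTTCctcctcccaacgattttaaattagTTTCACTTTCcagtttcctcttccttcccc
IFIT5: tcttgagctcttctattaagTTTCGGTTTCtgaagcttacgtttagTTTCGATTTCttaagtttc

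These windows lie at chr14:94110608-94110670 for IFI27, chr11:313980-314029 for IFITM1, chr15:88638927-88638976 for ISG20 and chr19:17405725-17405780 for BST2, whose gene is on the reverse strand. They lie at chr11:320866-320932 for IFITM3 and chr7:140062952-140062981 for PARP12, both on the reverse strand, and at chr10:89327821-89327904 for IFIT3 and chr10:89414503-89414567 for IFIT5. The genes as counted begin further upstream than the RefSeq start for IFI27, IFITM1, ISG20, IFITM3 and PARP12, so these windows lie inside them. The window of IFIT3 runs across the start of the gene as counted. IFITM1 and IFIT5 each have a further match that runs across the RefSeq start and is left out of the window. In BST2 the pair of matches overlaps and shares its middle letters, and in IFI27 the pair faces in opposite directions. IFIT3 and IFIT5, both called lower, carry their matches in the other orientation, as do PARP12 and, for 1 of its 2 matches, IFI27 among the genes called higher. Matches in that orientation also occur in IFIH1, IFIT1 and HERC5, which were not called, and in GBP1 and IFI44, which were not tested. Whether orientation went with the direction of change was not tested. UBE2L6, IRF1 and HERC6 have an entry and no match.

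**Figure D2:**
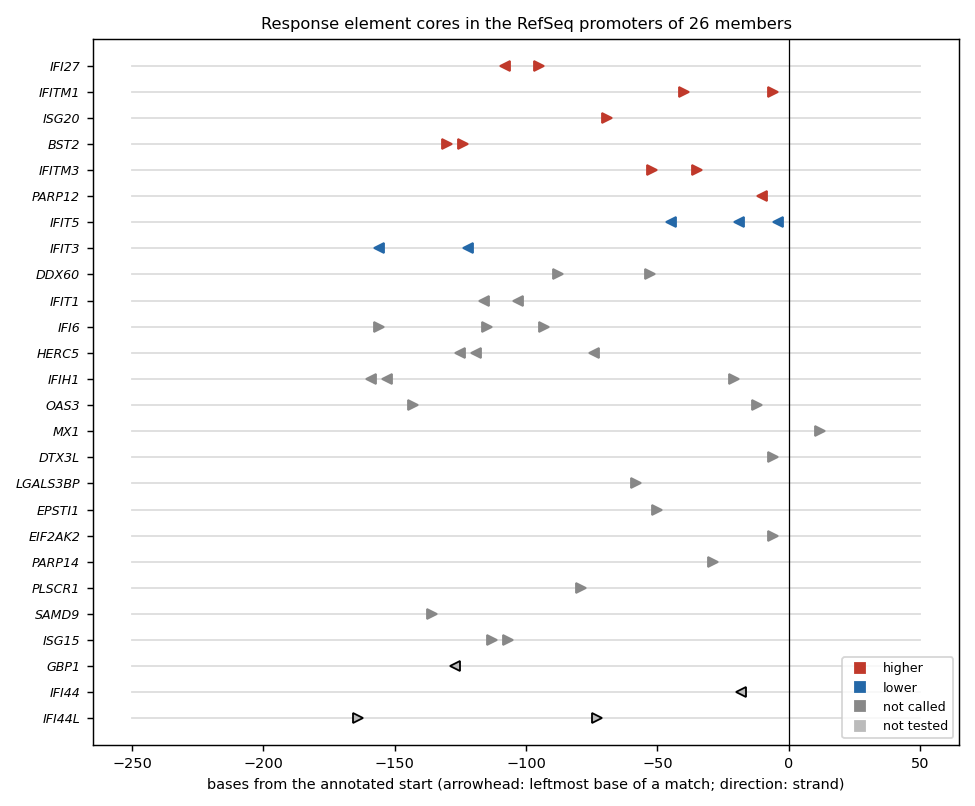
Position of each response element core (arrowhead at its leftmost base, pointing right on the gene's strand and left on the other) in bases from the RefSeq start, for the 26 members with a match, coloured by call. Matches lay between 164 bases before the start (IFI44L) and 12 bases after it (MX1), in members called higher, called lower and not called alike.

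Among the proteins that hold viruses at membranes, IFITM1, IFITM3 and BST2 were called higher and IFITM2 was not called, where 13.3% of all tested genes were called higher. The IFITM proteins restrict the entry of enveloped viruses and BST2 (tetherin) holds budding virus particles at the cell surface. IFITM1 (ENSG00000185885, chromosome 11, 313506 to 315272) was at 30.2, 29.1 and 30.9 CPM in the control and 52.6, 49.1 and 59.9 CPM in the knockdown libraries. Every knockdown library was far above every control library. This was a log2 fold change of 0.84 (SE, standard error, 0.0785, adjusted p = 5.9e-07), the smallest adjusted p-value among the members. IFITM3 (ENSG00000142089, chromosome 11, 319669 to 327537) was at 185, 172 and 186 CPM in the control and 226, 218 and 241 CPM in the knockdown libraries, a log2 fold change of 0.33 (SE 0.0564, adjusted p = 3.16e-04). BST2 (ENSG00000130303, chromosome 19, 17402939 to 17405648) was at 37.2, 31.4 and 37.2 CPM in the control and 48.6, 45.3 and 49.996 CPM in the knockdown libraries, with no overlap between the groups. Its log2 fold change was 0.44 (SE 0.0778, adjusted p = 4.43e-04). IFITM2, the third IFITM gene of the list, was at 166.7 ± 10.4 CPM in the control and 168.4 ± 9.49 CPM in the knockdown libraries (SD, n = 3), with a log2 fold change of 0.015 (SE 0.0607, adjusted p = 0.889). In the annotation, 32.5% of the exonic bases of IFITM1 are shared with IFITM2 on the same strand, and 21.3% of those of IFITM3 lie opposite an antisense gene, so part of their reads may have been assigned to either gene or to none.

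Of the 4 oligoadenylate synthetases, OAS2 was lower, OASL was higher, and OAS1 and OAS3 were not called. Over all tested genes, 25.2% were called. OAS1, OAS2 and OAS3 make the short RNA messenger that activates RNase L in the presence of double-stranded RNA, and OASL is a relative without this activity. OAS2 (ENSG00000111335, chromosome 12, 112978395 to 113011723) was at 6.77, 8.04 and 6.14 CPM in the control and 3.30, 3.08 and 4.03 CPM in the knockdown libraries. All knockdown libraries were lower than all control libraries, by 2.01-fold in the fit, a log2 fold change of -1.004 (SE 0.152, adjusted p = 1.12e-04). OASL was at 0.739, 0.860 and 0.838 CPM in the control and 1.45, 1.30 and 1.54 CPM in the knockdown libraries, from 19 to 46 counts in a library. The groups did not overlap, and its log2 fold change was 0.82 (SE 0.265, adjusted p = 0.031). This call was lost with DESeq2 (adjusted p = 0.119), with the trend with abundance removed (0.0892) and without any 1 library other than knockdown replicate 2 (0.0547 to 0.102). OAS1 was at 5.02, 4.99 and 3.43 CPM in the control and 6.10, 5.47 and 6.21 CPM in the knockdown libraries, which did not overlap. Its log2 fold change was 0.41 (SE 0.154) and did not pass, with an adjusted p of 0.0639. It passed without control replicate 1 (0.0469), control replicate 2 (0.042) or knockdown replicate 2 (0.0467). It also passed with a replicate block (0.0221) or after removal of GC content and length trends (0.0416). OAS3, the most abundant of the family per length with 7.29 RPKM (CPM per kilobase of merged exons) in the control, had a log2 fold change of 0.11 (SE 0.068, adjusted p = 0.254).

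Of the 4 IFIT genes, 2 were called lower and none higher, where 11.9% of all tested genes were lower and 13.3% higher. IFIT proteins bind viral RNA, recognizing among other features the cap of RNAs that lack host methylation, and their genes lie side by side on chromosome 10. IFIT3 (ENSG00000119917, 89327894 to 89340971) was at 3.54, 4.60 and 3.99 CPM in the control and 2.41, 2.54 and 2.72 CPM in the knockdown libraries. All knockdown libraries were below the lowest control library, with a log2 fold change of -0.66 (SE 0.166, adjusted p = 0.0075). IFIT5 was at 12.1, 11.3 and 10.5 CPM in the control and 8.66, 9.06 and 7.92 CPM in the knockdown libraries, again without overlap. Its log2 fold change was -0.40 (SE 0.107, adjusted p = 0.0104), with an adjusted p of 0.0504 without control replicate 1. IFIT1 and IFIT2, at 25 to 55 and 29 to 50 counts per library, had log2 fold changes of 0.25 (SE 0.295) and 0.041 (SE 0.25), and neither was called.

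ISG15 is a ubiquitin-like protein that is joined to other proteins by the E2 enzyme UBE2L6 and the E3 ligase HERC5 and removed by USP18. HERC6, a neighbor and relative of HERC5, showed the largest fall among the tested members. HERC6 (ENSG00000138642, chromosome 4, 88378739 to 88443111) was at 5.18, 4.69 and 3.83 CPM in the control and 1.99, 2.43 and 1.91 CPM in the knockdown libraries, with a log2 fold change of -1.11 (SE 0.177, adjusted p = 1.73e-04). The lowest control library was well above the highest knockdown library. UBE2L6 was at 22.3, 22.8 and 22.9 CPM in the control and 26.01, 27.1 and 27.3 CPM in the knockdown libraries, a small difference without overlap, and its log2 fold change was 0.24 (SE 0.0747, adjusted p = 0.0245). This call was lost with DESeq2 (0.0518), with no filter on low counts (0.0825) and without control replicate 1, control replicate 3, knockdown replicate 1 or knockdown replicate 3 (0.067 to 0.0889). ISG15 itself had a log2 fold change of -0.21 (SE 0.0854, adjusted p = 0.0769), and its adjusted p was 0.0119 without control replicate 2, 0.0444 with no filter on low counts and 0.00458 after removal of GC content and length trends. ISG15 was also called lower with a replicate block. HERC5 and USP18 had values of 0.21 (SE 0.24) and 0.45 (SE 0.216) and were not called. In USP18, 15.4% of the 100-base words of its transcripts also occur in USP41.

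IFI27, a small mitochondrial and nuclear-envelope protein whose gene is among the most inducible by interferon, showed the largest rise among the tested members. IFI27 (ENSG00000165949, chromosome 14, 94104836 to 94116698) was at 2.37, 1.76 and 2.39 CPM in the control and 4.40, 4.60 and 5.41 CPM in the knockdown libraries. The groups were well apart, by 2.20-fold in the fit, with a log2 fold change of 1.14 (SE 0.173, adjusted p = 1.11e-04). IFI6 and IFI35 had log2 fold changes of 0.23 (SE 0.118) and -0.19 (SE 0.127) and were not called. IFI44 and IFI44L had no count in any library, against a limit of 3 counts or 0.101 to 0.129 CPM per library that a count of 0 allows. Such limits and the standard errors of low genes cover these libraries and their counting error only.

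**Figure D3:**
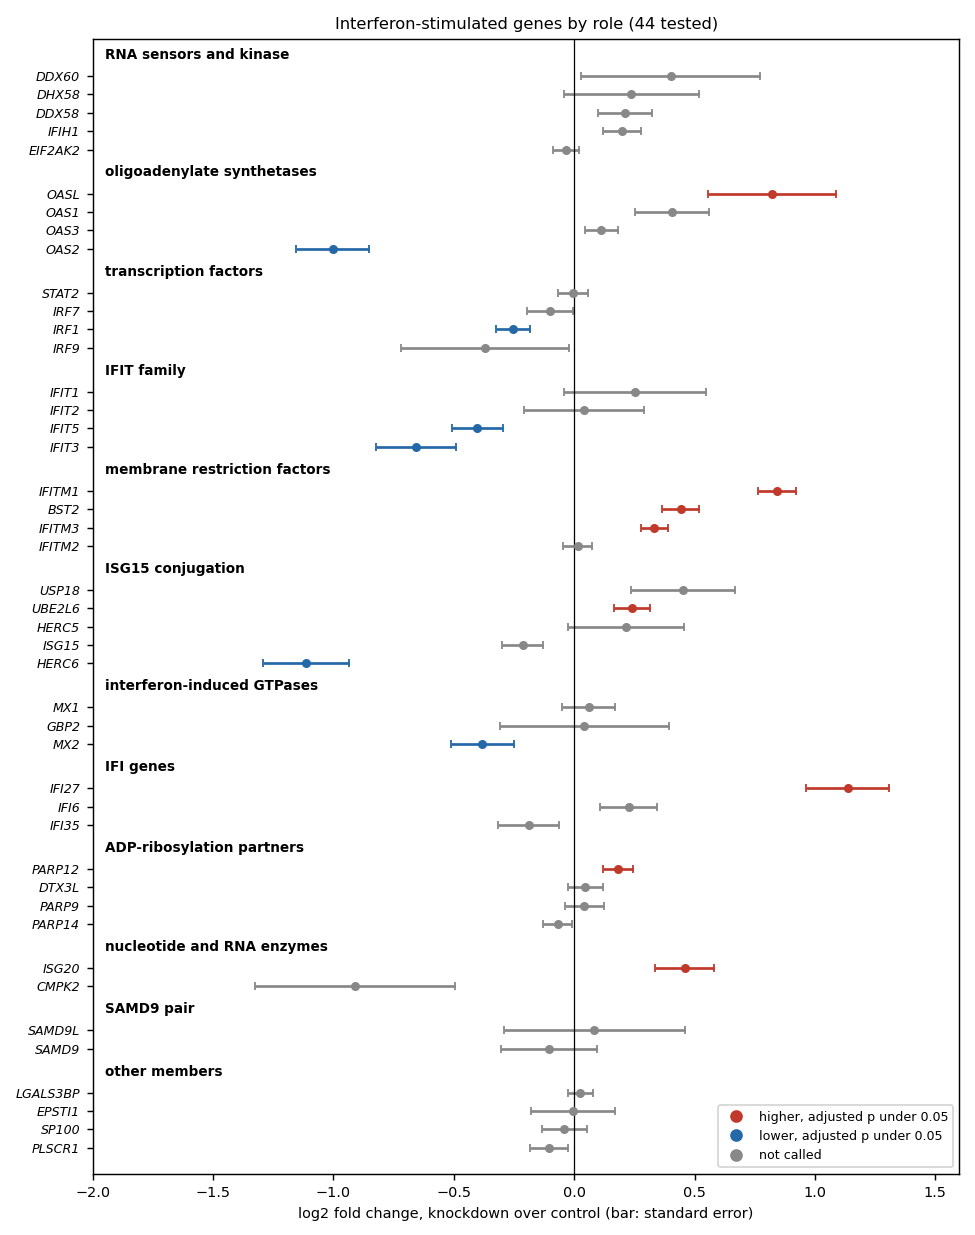
Log2 fold change of knockdown over control (x axis) with its standard error for the 44 tested interferon-stimulated genes, grouped by role, with genes called higher in red, called lower in blue and not called in grey. Red and blue points occur side by side within the oligoadenylate synthetases and the ISG15 conjugation genes, and the values run from -1.11 (HERC6) to 1.14 (IFI27).

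None of the 5 RNA sensor and kinase genes was called in the main fit. Over all tested genes, 25.2% were called. RIG-I (DDX58) and MDA5 (IFIH1) detect viral RNA and start interferon production, DHX58 and DDX60 modulate them, and PKR (EIF2AK2) halts translation on binding double-stranded RNA. IFIH1 was at 28.6, 32.2 and 31.0 CPM in the control and 33.0, 38.3 and 34.1 CPM in the knockdown libraries. Its groups did not overlap, but its log2 fold change of 0.20 (SE 0.0791) had an adjusted p of 0.0765. The adjusted p of IFIH1 was 0.0148 after the removal of GC content and length trends and 0.00887 with a replicate block. The log2 fold changes of DDX58, DHX58 and DDX60 were 0.21, 0.24 and 0.40 (SEs 0.111, 0.28 and 0.371). DDX58 had an adjusted p of 0.188, and of 0.047 with a replicate block. EIF2AK2, with 221.9 ± 12.3 CPM in the control and 216.7 ± 8.27 CPM in the knockdown libraries (SD, n = 3), had a log2 fold change of -0.034 (SE 0.056, adjusted p = 0.712).

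Of the 4 transcription factors, IRF1 was called, and 25.2% of all tested genes were called. IRF1 drives part of the response to interferon gamma, IRF7 amplifies interferon production, and STAT2 and IRF9 belong to the complex on the response element. IRF1 was at 47.7, 42.9 and 44.05 CPM in the control and 38.4, 35.8 and 38.5 CPM in the knockdown libraries, all of the latter being lower. Its log2 fold change was -0.26 (SE 0.0702, adjusted p = 0.0125), and the adjusted p was 0.0754 without control replicate 1. In the annotation, 22.0% of the exonic bases of IRF1 lie opposite other genes, and reads of the strands may not have been told apart. STAT2 was at 59.5 ± 1.90 CPM in the control and 59.3 ± 2.43 CPM in the knockdown libraries (SD, n = 3), with a log2 fold change of -0.0056 (SE 0.0628, adjusted p = 0.961). IRF7 and IRF9 had log2 fold changes of -0.10 (SE 0.0959) and -0.37 (SE 0.349), and 48.4% of the exonic bases of IRF9 are shared with another gene on the same strand.

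The remaining calls were single genes of their groups, where 25.2% of all tested genes were called. MX2, a GTPase that restricts retroviruses, was at 8.41, 8.73 and 9.02 CPM in the control and 5.68, 6.31 and 8.06 CPM in the knockdown libraries, of which replicate 3 lay close to the control. Its log2 fold change was -0.38 (SE 0.132, adjusted p = 0.0424), and the call was lost with DESeq2 (0.0694) and without any 1 library other than knockdown replicate 3 (0.0572 to 0.183). MX1 had a log2 fold change of 0.059 (SE 0.109). ISG20, an exonuclease, was at 5.64, 5.12 and 5.55 CPM in the control and 7.81, 6.85 and 7.76 CPM in the knockdown libraries, without overlap, and had a log2 fold change of 0.46 (SE 0.123, adjusted p = 0.0107, and 0.057 without knockdown replicate 1). PARP12, a mono-ADP-ribosyltransferase, was at 53.5, 55.8 and 53.4 CPM in the control and 61.7, 63.0 and 59.9 CPM in the knockdown libraries. Its groups did not overlap although the log2 fold change was only 0.18 (SE 0.0613, adjusted p = 0.0367), and the call was lost with DESeq2 (0.057), with no filter on low counts (0.129) and without any 1 library other than control replicate 2 (0.0516 to 0.153). PARP9, PARP14 and DTX3L, the partner ligase of PARP9, had log2 fold changes between -0.069 and 0.046. SAMD9, SAMD9L, EPSTI1, LGALS3BP, PLSCR1, SP100 and GBP2 lay between -0.11 and 0.083 on the log2 scale, and CMPK2, at 8 to 29 counts per library, had -0.91 (SE 0.414, adjusted p = 0.121). GBP1, RSAD2 and XAF1 had too few counts for a test, with at most 13 counts in a library, and RSAD2 had 4, 2 and 4 counts in the control and 1, 0 and 0 in the knockdown libraries.

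Ratios between neighboring members were compared, and none passed a test. Many interferon-stimulated genes lie in clusters of related genes, and 11 pairs of tested members lie next to each other within 100000 bases, some sharing a gene. The ratio of each pair was taken within each library, and for 7 of the 11 pairs the ratios of the groups did not overlap. Each of these 7 pairs holds a member that was called by itself, 38.8% of all tested genes were separate between the groups, and the share among other neighboring genes was not tested. All 7 had p = 0.1 in an exact two-sided permutation test (3 libraries against 3), the smallest that it allows, and 0.157 after Benjamini-Hochberg adjustment over the 11 pairs, so none could pass 0.05. OAS3 exceeded OAS2 by 9.14, 6.89 and 10.3 times in CPM in the control and by 20.2, 19.8 and 16.7 times in the knockdown libraries. HERC6 exceeded HERC5 by 3.24, 2.06 and 2.59 times in the control, whereas the ratio lay between 0.740 and 1.52 in the knockdown libraries. IFITM2 exceeded IFITM1 by 5.71, 5.96 and 5.01 times in the control and by 3.12, 3.30 and 2.995 times in the knockdown libraries. For PARP9 and DTX3L, which share a divergent promoter, the ratios were 0.339, 0.326 and 0.337 in the control and 0.311, 0.340 and 0.350 in the knockdown libraries and overlapped.

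Levels per length spanned a wide range. In the control, IFITM3 led with 134.5 ± 5.69 RPKM, followed by IFITM2 with 108.1 ± 6.72, LGALS3BP with 57.8 ± 1.40, ISG15 with 35.3 ± 3.67, BST2 with 31.5 ± 3.01 and IFITM1 with 27.8 ± 0.865 RPKM (SD, n = 3). The control ranges of ISG15 and BST2 overlapped, as did those of BST2 and IFITM1, whereas the first 3 genes were each apart from the next. With knockdown, IFITM1 was at 49.9 ± 5.10 and BST2 at 42.8 ± 2.17 RPKM, both above ISG15 at 30.4 ± 2.003 RPKM. IFI27 and HERC6, the genes with the largest rise and fall, were near 1 RPKM or below, at 0.525 ± 0.0865 and 0.788 ± 0.118 RPKM in the control. The merged exons include rarely used isoforms, so these values set a scale per annotated length and not per molecule. By count level, 21 members had at least 10 CPM in the control, 18 had from 1 to 10 CPM and 10 had less. The summed level of all members was 1545, 1550 and 1542 CPM in the control and 1631, 1616 and 1647 CPM in the knockdown libraries. Such a sum weighs abundant genes most, and the mean of IFITM3 alone went from 181.3 to 228.3 CPM. Over the tested members, 26 log2 fold changes were above 0 and 18 below. Fewer cells with a high level and less RNA per cell cannot be told apart in such bulk libraries.

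**Figure D4:**
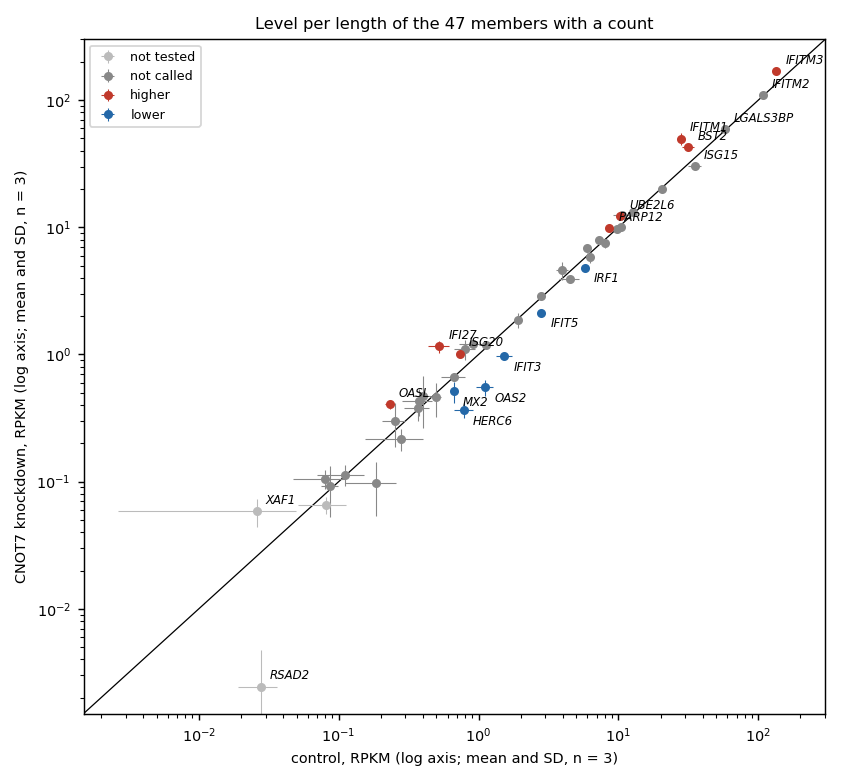
Mean RPKM (log axes) of the 47 members with a count in the control (x axis) and CNOT7 knockdown libraries (y axis), with SD bars (n = 3) and a line of equal levels. Where the SD came near or above the mean, both arms of its bar are shortened to just under the mean. IFITM1 and BST2 lie above the line among the abundant genes, and near 1 RPKM IFI27 and ISG20 lie above it and HERC6, OAS2 and MX2 below it.

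The other genes of the pathway were read from the same fit, with 76 genes in 5 lists. Of the 48 tested, 5 were higher and 7 were lower, 25.0% against the 25.2% of all tested genes. The interferons themselves were nearly absent. Of 21 ligand genes, 17 had no count in any library, IFNB1, IFNG and IFNL1 among them, 3 had 1 count in all libraries together, and only IFNE was tested, at 10 to 15 counts per library with a log2 fold change of -0.17 (SE 0.385).

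Of 10 receptors and signal transducers, STAT3 alone was called, where 25.2% of all tested genes were called. STAT3, which mainly serves interleukin-6 family signals, was at 69.3, 70.3 and 71.1 CPM in the control and 88.8, 82.7 and 84.0 CPM in the knockdown libraries, a log2 fold change of 0.28 (SE 0.0582, adjusted p = 0.0019). Of 6 negative regulators of JAK-STAT signaling, SOCS1 and SOCS3 were lower, where 11.9% of all tested genes were lower. The 6 log2 fold changes had a median of -0.018, with 3 above 0 and 3 below. These lists were drawn up with earlier results of these data known, so their counts are descriptions. SOCS1, which blocks JAK kinases and is itself induced by interferons, was at 2.72, 2.62 and 2.63 CPM in the control and 0.923, 1.09 and 1.48 CPM in the knockdown libraries. All knockdown libraries were far below the control, with a log2 fold change of -1.19 (SE 0.222, adjusted p = 7.76e-04). SOCS3 was at 9.18, 7.09 and 7.14 CPM in the control and 5.61, 4.53 and 6.14 CPM in the knockdown libraries, without overlap, with a log2 fold change of -0.52 (SE 0.144, adjusted p = 0.0128, and 0.08 without control replicate 1). PIAS1, PIAS3, PTPN2 and PTPN6 had log2 fold changes between -0.039 and 0.093.

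In the list for nucleic acid sensing and interferon induction, 4 of 9 tested genes were lower and 1 was higher, where 11.9% of all tested genes were lower and 13.3% were higher. The list was drawn up with earlier results of these data known, so its count is a description. TMEM173 (STING), the adaptor for cytosolic DNA, was at 33.3, 30.8 and 31.4 CPM in the control and 26.6, 23.6 and 24.3 CPM in the knockdown libraries, a log2 fold change of -0.36 (SE 0.077, adjusted p = 0.00245). CGAS, the sensor upstream of it, had only 2 or 3 counts in each library. ADAR, which edits double-stranded RNA, had a log2 fold change of -0.25 (SE 0.0507, adjusted p = 0.00164). IKBKE, a kinase that activates interferon regulatory factors, had -0.31 (SE 0.0768, adjusted p = 0.00686, and 0.0705 without control replicate 3). TRAF3 had -0.17 (SE 0.0525, adjusted p = 0.0261), a call that was lost with the trend with abundance removed (0.132) and without control replicate 1, control replicate 3 or knockdown replicate 1 (0.0803 to 0.119). TLR3, the endosomal sensor of double-stranded RNA, was the higher gene, at 4.44, 4.90 and 3.91 CPM in the control and 6.92, 7.32 and 6.11 CPM in the knockdown libraries, with a log2 fold change of 0.62 (SE 0.138, adjusted p = 0.00306).

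Of 27 further interferon-stimulated genes, 22 were tested, 3 were higher and 1 was lower. The higher calls made 13.6% of the 22 and 13.3% of all tested genes, and the lower calls 4.55% and 11.9%. SP110, a nuclear body protein, had a log2 fold change of 0.73 (SE 0.156, adjusted p = 0.00232), TNFSF10 (TRAIL), a death ligand, of 0.42 (SE 0.0891, adjusted p = 0.00221), and TRIM25, a ubiquitin ligase that activates RIG-I, of 0.21 (SE 0.0536, adjusted p = 0.00726, and 0.0541 without knockdown replicate 1). For SP110, 20.9% of the exonic bases lie opposite other genes in the annotation, and reads of the strands may not have been told apart. LY6E, a membrane protein, had a log2 fold change of -0.33 (SE 0.0616, adjusted p = 8.15e-04). TRIM21, a ubiquitin ligase and intracellular antibody receptor, was at 11.7, 11.6 and 12.05 CPM in the control and 11.96, 11.8 and 13.6 CPM in the knockdown libraries. These groups overlapped, with a log2 fold change of 0.079 (SE 0.0984, adjusted p = 0.611). The antigen presentation genes TAP1, PSMB8 and PSMB9 had log2 fold changes between 0.024 and 0.054 and were not called.

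**Figure D5:**
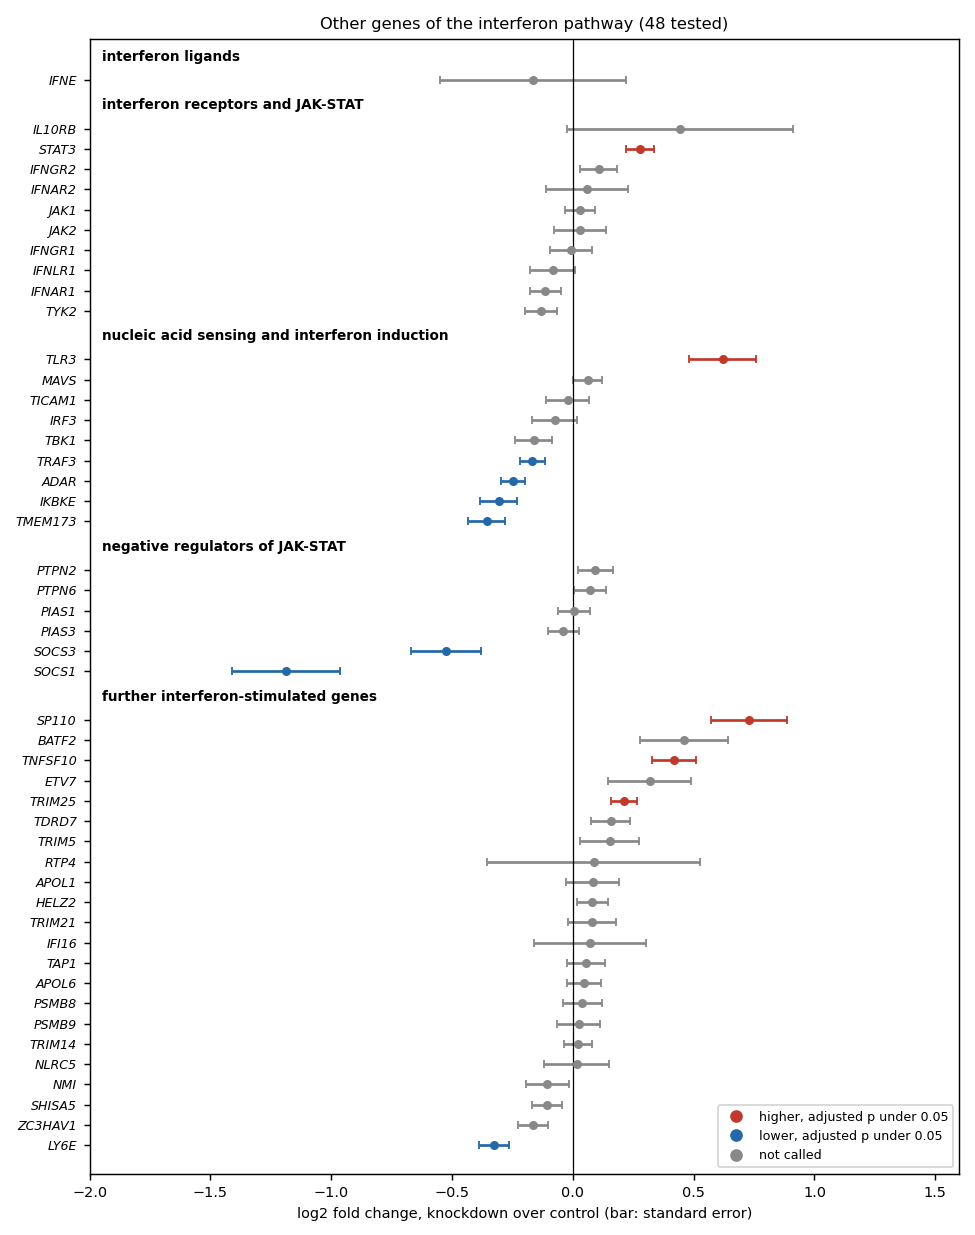
Log2 fold change of knockdown over control (x axis) with its standard error for the 48 tested genes of the interferon pathway outside the member list, coloured as called higher (red), called lower (blue) or not called (grey). SOCS1 has the lowest value (-1.19) and SP110 the highest (0.73).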

How the data were processed

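RNA was sequenced from 3 control and 3 CNOT7 knockdown libraries. Total RNA was isolated with TRIzol and made into NEBNext Ultra libraries, and the authors deposited raw counts per gene, without normalization. The submitters' processing notes name CASAVA 1.8, fastp, HISAT2 2.0.5, featureCounts 1.5.0-p3, DESeq2 1.20.0 and GRCh38; the strand setting is not given in the sources used here. All 58735 gene identifiers, positions and lengths matched GENCODE release 29, the length being that of the merged exons. The deposited table also holds the gene length in bases, and 0 columns of other samples.

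The test used edgeR 4.0.16 under R 4.3.3 (filterByExpr, TMM, glmQLFit and glmQLFTest between the groups, Benjamini-Hochberg adjustment over 17574 genes, threshold 0.05, any fold size). Standard errors came from the size of the log2 fold change over the square root of its F statistic. Total counts of 23788451 to 29104872 per library set the precision, which the standard errors give. The alternatives were RLE factors, DESeq2 1.42.0, no filter on low counts, a replicate block, a minimum of 10 counts in each library, cyclic loess scaling against abundance (limma 3.58.1, written as trend with abundance removed), each library left out and, added after seeing the data, removal of GC content and length trends. Steps were tested on simulated data. The members and gene lists were chosen with earlier results of these data known, and the lists therefore have no set test. Genes given in full were the members with an adjusted p under 0.05 or with no overlap between groups and, of the pathway lists, those past the threshold plus TRIM21. Some genes of the lists are not reported here. Promoters were searched with Python 3.11.15.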

Additional observations from a re-analysis of the deposited data

How the results depend on the processing

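Of the 14 called members, all kept their direction in the 13 alternatives and 7 kept the call in all of them. Of the members not called, 4 were called in some alternative, namely DDX58, IFIH1, OAS1 and ISG15. Members called higher numbered 8, and 5 with DESeq2. With the replicate block, 11 members were higher and 7 lower, and over all genes the calls went from 2329 higher and 2095 lower to 3202 higher and 3306 lower. Removal of GC content and length trends gave 3055 genes higher and 3416 lower. The correlations of same-numbered deviations from the group means were 0.0729, 0.279 and -0.00493, and only replicate 2 of the control correlated best with its own number. Control replicate 1 correlated best with knockdown replicate 3, at 0.237. Deviations from a mean of 3 libraries cancel out within each group, so these values cannot settle whether libraries were paired. Whether libraries of the groups shared a batch was not tested. With 1 library left out, 4 to 8 members were higher, 3 to 6 lower, and over all genes 1626 to 2323 were higher and 1367 to 2219 lower. The median log2 fold change of the tested members was 0.042. It was 0.034 with RLE factors, 0.028 with DESeq2, 0.025 with no filter on low counts, 0.047 with at least 10 counts in every library, 0.031 after removing the GC content and length trends, and 0.020 to 0.089 with 1 library left out. The cause of these moves was not tested.

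Some genes that were not called changed sign. With the trend with abundance removed the log2 fold changes were 0.028 for EIF2AK2, 0.032 for STAT2, -0.12 for IFIT2, -0.0048 for MX1, -0.16 for GBP2 and -0.11 for SAMD9L. IFITM2 had -0.0021 with no filter on low counts and EPSTI1 0.0025 with the replicate block. With 1 library left out, the lowest and highest log2 fold changes were for DHX58 -0.18 to 0.46, for EIF2AK2 -0.061 to 0.011, for STAT2 -0.037 to 0.027, for IFIT1 -0.095 to 0.42, for IFIT2 -0.12 to 0.18, for IFITM2 -0.038 to 0.042, for MX1 -0.0011 to 0.15, for GBP2 -0.13 to 0.37. They were for PARP9 -0.013 to 0.069, for DTX3L -0.019 to 0.11, for SAMD9 -0.35 to 0.082, for SAMD9L -0.31 to 0.31, for EPSTI1 -0.11 to 0.16, for LGALS3BP -0.0061 to 0.052 and for SP100 -0.16 to 0.027. Depth limits the members under 1 CPM most, whose standard errors reach 0.414.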
